A study of Homo sapiens with 2 samples.

Results

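Integrins and the matrix proteins they bind were examined in the SKOV3 RUNX2 knockdown clone cl-sh3. The set held 52 genes: 13 integrin alpha chains, 8 integrin beta chains, 15 collagen chains, 10 laminin chains and nidogens, and 6 further genes for fibronectin, tenascin C, thrombospondin 2, SPARC, LOX and LOXL2. A gene belonged to it when its symbol was listed and a probe on the array carried a RefSeq accession of that symbol. Of the 52 genes, 50 were matched in this way and all 50 were measured, among 16153 measured genes in all. The chains COL1A1 and COL13A1 had no probe matched by accession and were not analysed here. The 50 genes were covered by 81 probes, of which 75 were measured and 6 had neither RNA well above background in both hybridizations. Both RNAs were well above background in both hybridizations for 49 genes, the exception being ITGA10, where the control was not in hybridization 2.

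SKOV3 is an established human ovarian adenocarcinoma cell line. Clone cl-sh3 carried a short hairpin RNA against RUNX2 in the lentiviral vector pLKO.1-puro, and the control clone carried the same vector with a scrambled hairpin (mock-transfected). Both clones were stable, puromycin-selected, adherent cultures, each group was represented by RNA of 1 clone, and cl-sh3 had been selected for its low RUNX2 expression and, for the arrays, because its growth, migration and invasion were reduced more than those of another knockdown clone. Clone cl-sh3 was labelled with Cy5 and the control with Cy3 in hybridization 1, and the labels were exchanged in hybridization 2. As the same RNAs were hybridized on 1 slide each time, these are 1 replicate and no p-value can be given. Differences between clones and differences caused by RUNX2 cannot be told apart in this design, nor can a change in the share of cells of a kind be told apart from a change in RNA per cell.

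Integrins are receptors made of an alpha and a beta chain that cross the plasma membrane, bind matrix proteins or other cells outside, and couple to the actin cytoskeleton inside. Laminins are trimers of an alpha, a beta and a gamma chain that form the basement membrane together with collagen IV and the nidogens, while fibrillar collagens and fibronectin build the interstitial matrix. In ovarian carcinoma these proteins serve the attachment of tumour cells to the peritoneal lining and to one another. The comparison addressed which transcripts differ after RUNX2 knockdown, and here which adhesion and matrix transcripts were among them.

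All values below are log2 ratios of cl-sh3 over control, so that 1 is a 2-fold higher and -1 a 2-fold lower signal in cl-sh3. Each gene is given by the brightest of its measured probes. Across the 16153 genes, 95% lay within 0.319 of the mean of both hybridizations in either one, and this value is used as the technical bound. It describes the repeat of a labelling and hybridization with dyes reversed, and holds no error between cultures. Outlier flags removed 153 and 144 spots of the arrays, between 77.3% and 93.9% of spots per channel were well above background, and no spot was saturated. The median absolute difference between the hybridizations was 0.226 over the 50 genes and 0.228 over all genes.

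By its brightest probe, the gene aimed at by the hairpin was less abundant in the knockdown clone. RUNX2, a transcription factor of bone and cartilage, had log2 ratios of -2.04 and -1.30 there. The other probes of RUNX2 did not show a comparable difference, with 0.17 and -0.13 for a dimmer probe of the same accession, NM_004348, and -0.29 and -0.17 for a probe of NM_001015051.

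Of the 50 genes, 1 exceeded the control by 2-fold or more in both hybridizations, ITGB2, where 0.136% of all measured genes did. In the other direction 0 genes reached 2-fold in both, where 0.52% of all measured genes did. At 1.5-fold, 2 genes were higher in both hybridizations, ITGB2 and NID2, with a background of 1.6%, and 1 was lower, LAMA4, with a background of 2.61%. By sign alone, 19 of 50 (38.0%) were higher in both hybridizations where 30.9% of all genes were, 17 (34.0%) were lower in both where 28.4% were, and 14 had opposite signs. The mean ratio lay above the technical bound for 7 genes (14.0%, all genes 10.2%) and below it for 10 (20.0%, all genes 12.9%). The remaining 33 genes were within the bound, and the median over the 50 genes was 0.036, beside 0.013 over all genes. Most of the set thus lay within the technical bound, and the genes past it ran both ways.

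**Figure D1:**
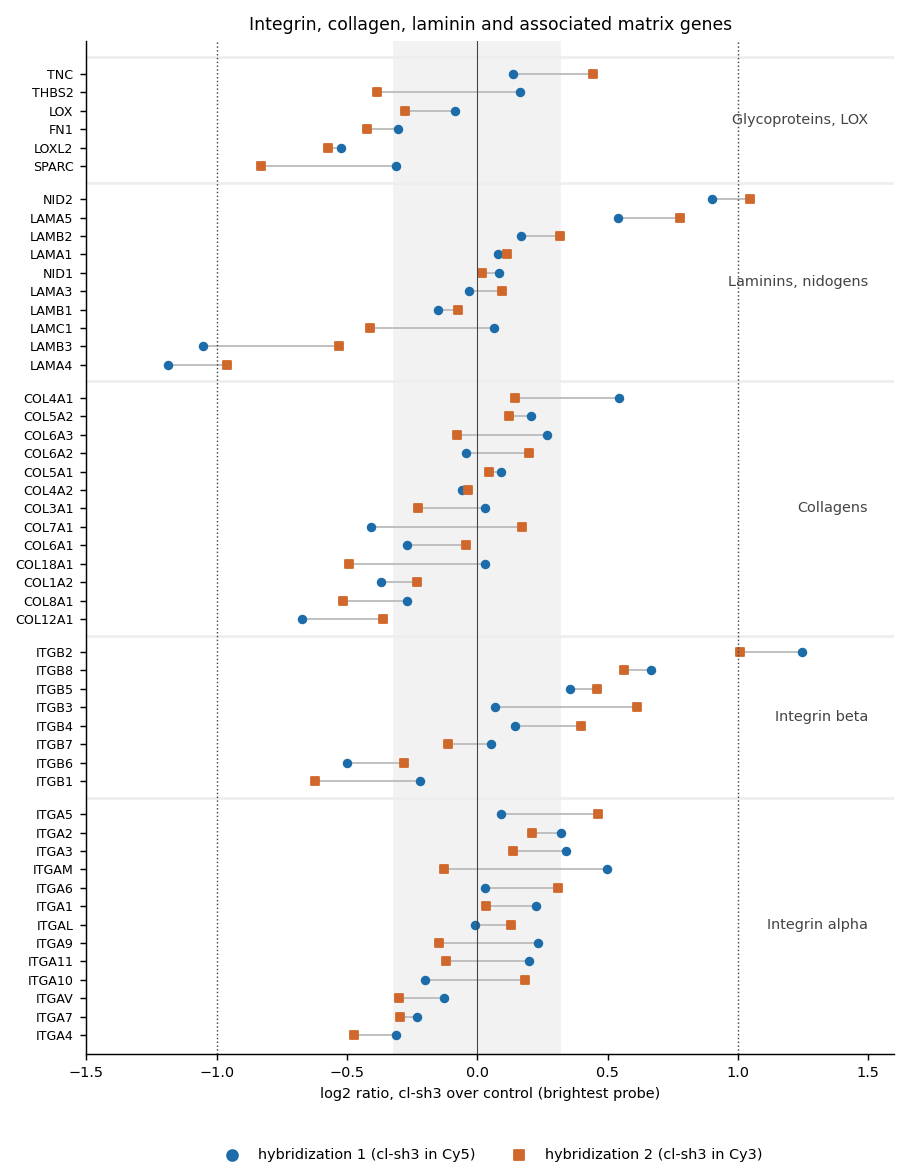
Log2 ratio of cl-sh3 over control (x axis) for each of the 50 measured genes, grouped by family, with hybridization 1 as circles and hybridization 2 as squares. The shaded band is the technical bound of 0.319 on either side of 0 and the dotted lines mark 2-fold. Only ITGB2 has both points beyond a dotted line, and the means of 12 of the 13 integrin alpha chains lie in the band.

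Of the 8 integrin beta chains, 4 were above the technical bound, 2 below and 2 within it, where 10.2% of all genes were above and 12.9% below. Their median ratio was 0.31, beside 0.06 for the alpha chains and 0.013 for all genes. In hybridization 1 the medians were close, 0.10 for the beta chains and 0.09 for the alpha chains. They lay apart in hybridization 2, at 0.43 and 0.03. The beta chain sets with which alpha chains a receptor can form, so the beta chains are described with their known partners.

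ITGB2, the beta chain of the leukocyte integrins such as LFA-1 and Mac-1, had the highest ratio of the whole set. The normalized log2 signal of its only probe was 9.72 in cl-sh3 and 8.47 in the control in hybridization 1, and 9.49 and 8.48 in hybridization 2. The ratios were 1.25 and 1.01, a mean of 1.13 or 2.19-fold higher, and ranked 26th from the highest of the 16153 genes. This probe was spotted 10 times on each array. In hybridization 1 the spots ranged from 1.01 to 1.47 with a mean of 1.25 ± 0.150 (SD over 10 spots), and all 10 were past 2-fold. In hybridization 2 the 9 usable spots ranged from 0.82 to 1.20 with a mean of 1.01 ± 0.125 (SD over 9 spots), and 5 were past 2-fold. Every spot was thus above 0 in both dye orientations, while the 2-fold mark of hybridization 2 was passed by a narrow margin. Without background correction the ratios were 1.13 and 0.86, and the gene was no longer past 2-fold in both.

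The alpha chains that pair with ITGB2 differed less. ITGAL, which forms LFA-1 with it, had -0.01 and 0.13 by its brightest probe and 0.45 and 0.24 by the other. ITGAM, the alpha chain of Mac-1, had 0.50 and -0.13, opposite signs in the 2 hybridizations. Leukocyte markers were also read beside this gene. Of 11 listed, 7 were measured, among them the pan-leukocyte phosphatase PTPRC, and CD53, SPI1, CD48 and LST1 were not well above background. The measured markers had mean ratios from -0.09 to 0.15, with 0 past the technical bound (all genes 10.2% above and 12.9% below). Their summed normalized signal was 4948 in cl-sh3 and 4540 in the control in hybridization 1, and 4779 and 4712 in hybridization 2.

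**Figure D2:**
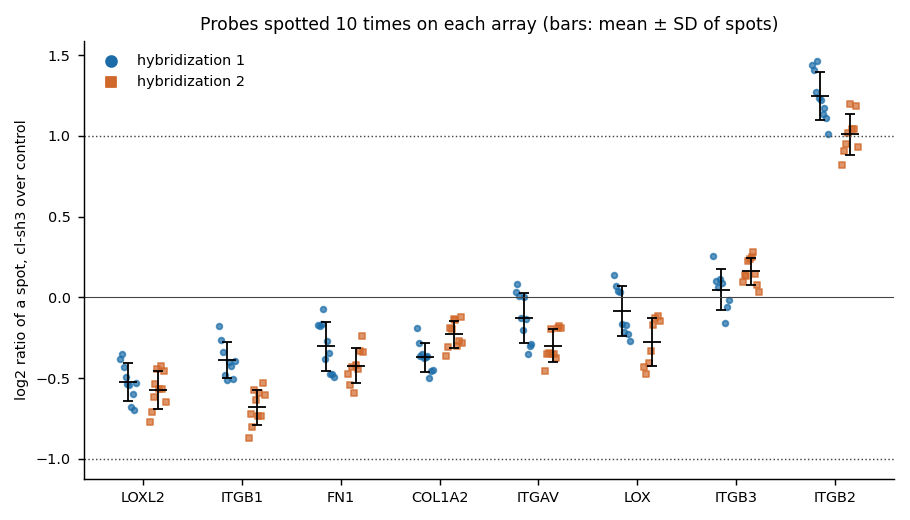
Log2 ratio of single spots (y axis) for the 8 probes of the set that were spotted 10 times on each array, with hybridization 1 as circles and hybridization 2 as squares. Bars give the mean and SD over spots, which is technical error within an array, and dotted lines mark 2-fold. For ITGB2 and LOX, part of the spread followed the order of spots, in opposite directions in the 2 hybridizations. ITGB2 went from 1.44 and 0.82 at its first spot to 1.01 and 0.93 at its last. LOX went from 0.14 and -0.43 at its first spot to -0.27 and -0.15 at its last usable spot. The SD is thus not random error alone. The ITGB2 spots lie from 0.82 to 1.47, while no spot of the other 7 genes is past 2-fold.

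ITGB1, the beta chain shared by most collagen, laminin and fibronectin receptors, was lower. It had 3 measured probes with log2 ratios of -0.22 and -0.62, of -0.53 and -0.50, and of -0.39 and -0.68. The last of these was spotted 10 times, and all 9 usable spots of hybridization 1 and all 10 of hybridization 2 were below 0. All probes were thus lower in both hybridizations, by a mean of -0.42 to -0.53. With median centring of the arrays in place of loess, the brightest probe had opposite signs (0.32 and -0.65), while the other probes stayed below 0 in both hybridizations (-0.21 and -0.47, -0.24 and -0.62). Loess removes a trend with brightness, and the brightest ITGB1 probe lies above a mean log2 intensity of 16, where even after loess the median of 274 genes was 0.16 in hybridization 1 and -0.08 in hybridization 2.

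Among the alpha chains, 12 of 13 were within the technical bound. ITGA4, the alpha chain of the fibronectin and VCAM-1 receptor VLA-4, was the lowest, with -0.31 and -0.47. ITGA5, which forms the classical fibronectin receptor with ITGB1, was the highest, with 0.09 and 0.46, and its mean of 0.28 stayed within the bound. The laminin receptor chains ITGA3 (0.34 and 0.14) and ITGA6 (0.03 and 0.31) were higher in both hybridizations, but each also within the bound. ITGA7, another laminin receptor chain that pairs with ITGB1, had -0.23 and -0.29 and was within the bound. The alpha chains that pair with ITGB1 thus lay on both sides of 0, with ITGA4 the 1 past the bound.

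ITGAV pairs with several beta chains to bind vitronectin, fibronectin and latent TGF-beta. It had -0.13 and -0.30 by the probe spotted 10 times, with 6 of 10 spots below 0 in hybridization 1 and all 10 in hybridization 2. Its partner chains ran in different directions. ITGB8, which binds latent TGF-beta with ITGAV, had 0.67 and 0.56. The other measured ITGB8 probes were also higher in both hybridizations, but by means of 0.16 and 0.25 that lie within the bound. ITGB5, of a vitronectin receptor, had 0.36 and 0.46. ITGB6, the epithelial partner that also binds latent TGF-beta, was lower, with -0.50 and -0.28. ITGB3, of the other vitronectin receptor, had 0.07 and 0.61 by its brightest probe, beside 0.05 and 0.16 by the probe spotted 10 times. The brightest ITGB3 probe therefore passed the bound through hybridization 2 alone. The mean ratios of ITGB3 and ITGB6 fell within the bound without background correction, at 0.31 and -0.27, and ITGA4 did likewise at -0.31. The probes of ITGB6 and ITGA4 were dim, with mean log2 intensities of 7.80 and 7.99.

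**Figure D3:**
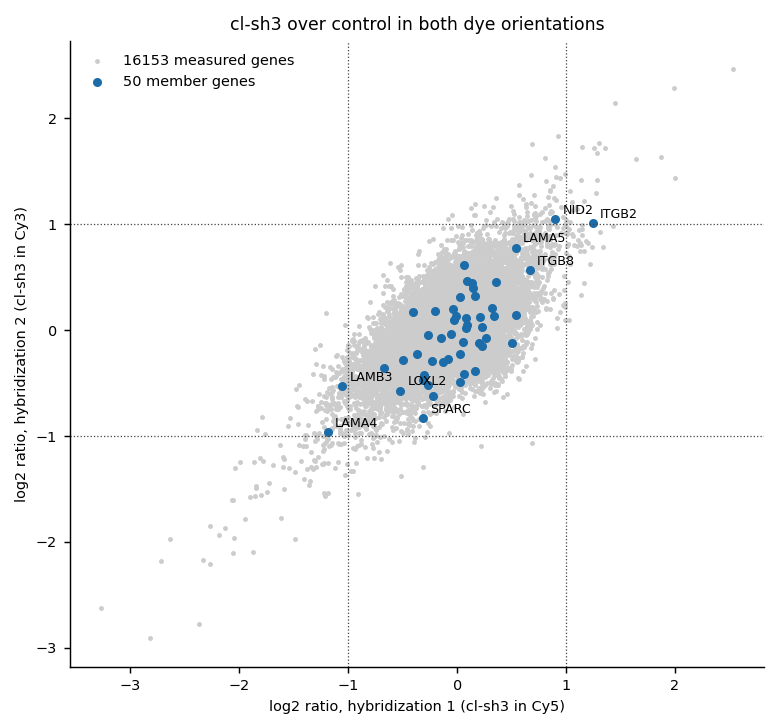
Log2 ratio of cl-sh3 over control in hybridization 1 (x axis) and hybridization 2 (y axis) for 16153 measured genes in grey and the 50 genes of the set in blue, with dotted lines at 2-fold. ITGB2 is the only gene of the set in the upper right corner past both lines, and LAMA4, LAMB3 and NID2 each lie past a single line.

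The laminins and nidogens held the widest range of ratios, from LAMA4 at -1.07 to NID2 at 0.97, around a median of 0.041. Of these 10 genes, 2 were above the bound, 2 below and 6 within it, with the same background of 10.2% and 12.9%.

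NID2, a basement membrane protein that links laminin to collagen IV, was higher. Its normalized log2 signal was 13.33 in cl-sh3 and 12.43 in the control in hybridization 1, and 13.48 and 12.44 in hybridization 2. The ratios were 0.90 and 1.04, a mean of 0.97 or 1.96-fold, so that 2-fold was passed in hybridization 2 only. Its relative NID1 had 0.08 and 0.02 and was within the bound. LAMA4, the laminin alpha chain of vessel walls, muscle and fat, was the lowest of the set. Its log2 signal was 8.17 in cl-sh3 and 9.36 in the control in hybridization 1, and 8.33 and 9.30 in hybridization 2. The ratios of -1.19 and -0.96 give a mean of -1.07 or 2.11-fold lower, which ranked 101st from the lowest of all genes. LAMA4 stayed short of 2-fold in hybridization 2, and passed it in both with normexp offset 0 (-1.33 and -1.09) and with the scanner software's own ratios (-1.60 and -1.11). It stayed short in hybridization 2 without background correction (-1.05 and -0.82, a mean of -0.94) and with median centring (-1.13 and -0.94). NID2 and LAMA4 were each measured by 1 probe in 1 spot per array, so no spread between spots is known for them.

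The promoters of NID2 and LAMA4 are shown because TGTGGT is a form of the core letters through which RUNX2 binds DNA. They were the genes with the largest differences for which a promoter sequence was at hand. The 250 bases before the RefSeq start are printed on the strand of the gene, from assembly GRCh38.p14, with TGTGGT or its reverse complement ACCACA in capitals. NID2 lies on the minus strand of chromosome 14 (chr14:52069060-52069309) and LAMA4 on the minus strand of chromosome 6 (chr6:112254568-112254817).
NID2: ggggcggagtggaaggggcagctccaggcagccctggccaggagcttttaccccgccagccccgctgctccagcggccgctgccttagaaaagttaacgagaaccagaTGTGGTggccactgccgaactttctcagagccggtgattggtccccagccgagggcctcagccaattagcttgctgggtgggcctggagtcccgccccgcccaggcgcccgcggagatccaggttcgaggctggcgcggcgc
LAMA4: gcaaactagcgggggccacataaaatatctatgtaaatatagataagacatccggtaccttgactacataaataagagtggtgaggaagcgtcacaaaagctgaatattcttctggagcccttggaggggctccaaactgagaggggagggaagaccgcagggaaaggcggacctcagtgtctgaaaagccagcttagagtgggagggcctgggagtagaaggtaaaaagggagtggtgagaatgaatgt
The NID2 window held 1 match, starting 142 bases before the start site, and the LAMA4 window held 0. Of the 52 genes 37 had a promoter in the table, and NID2 was the 1 (2.7%) with a match on either strand, while 2981 of 27305 promoters of all genes (10.9%) held one in a window of that length. Only TGTGGT and its reverse complement were searched for, so a count of 0 does not mean that every form of the core was absent. The shares above likewise count that form alone. A match of these letters is a description of the sequence and does not show binding.

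The other laminin chains were grouped by the trimers they form. LAMB3, the beta chain of the epithelial laminin-332, had -1.05 and -0.53, the second lowest mean of the set at -0.79, and its alpha chain LAMA3 had -0.03 and 0.09. LAMB3 was measured by a single probe whose log2 intensity is above 16. With median centring this probe had -0.63 and -0.53, a mean of -0.58 in place of -0.79, and was past 2-fold in neither hybridization. LAMA5, the alpha chain of the laminins of adult epithelial basement membranes, was higher with 0.54 and 0.78. The beta and gamma chains that LAMA4 and LAMA5 share were within the bound by their means: LAMB1 had -0.15 and -0.07, LAMB2 had 0.17 and 0.32, and LAMC1 had 0.06 and -0.41. The alpha chains LAMA4 and LAMA5 thus lay on opposite sides of 0 in both hybridizations, while the mean ratios of their partner chains were within the technical bound. LAMC1 had opposite signs and was past the bound in hybridization 2 alone.

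Of the 13 measured collagen chains, 10 were within the technical bound, 1 was above it and 2 were below it, beside 10.2% above and 12.9% below among all genes, so that the collagens stood close to the background. Their median was -0.10. COL12A1, a collagen that associates with the surface of fibrils, was the lowest with -0.67 and -0.36, and its second probe agreed in direction with a mean of -0.46. COL8A1, a short-chain network collagen, had -0.27 and -0.52. COL1A2, the alpha 2 chain of collagen I, had -0.37 and -0.23 by a probe whose 10 spots were below 0 in both hybridizations, while its other probe had 0.03 and 0.01. The collagen median changed sign, to 0.011, with median centring and, to 0.030, with all probes of a gene averaged, so no direction is given for the collagens as a group.

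COL4A1, a chain of the basement membrane collagen IV, was the highest of the collagens with 0.54 and 0.14, a mean of 0.34, while its partner COL4A2 had -0.06 and -0.04. The only COL4A2 probe lies above a log2 intensity of 16, and with median centring it had 0.35 and -0.04, a mean of 0.15 in place of -0.05. These chains assemble in 1 trimer and are encoded head to head by adjacent genes. With the scanner software's own ratios the mean of COL4A1 was within the bound, at 0.29. The sequence between the start sites is shown because both genes are transcribed away from it. It spans 126 bases on the plus strand of assembly GRCh38.p14 (chr13:110307158-110307283), with the box CCAAT in capitals.
COL4A1 and COL4A2: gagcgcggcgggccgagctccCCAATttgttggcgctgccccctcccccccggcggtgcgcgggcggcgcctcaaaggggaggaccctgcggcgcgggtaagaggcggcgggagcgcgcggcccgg
It held 1 match of CCAAT or its reverse complement ATTGG. Such a match occurred in 21.9% of 27305 promoter windows of that length and in 5 of the 37 genes of the set (13.5%). The 5 include COL4A1 and COL4A2 themselves, which share this match. The dimmer second probe of COL4A1 had 0.05 and 0.42, also higher in both hybridizations, while COL4A2 was measured by 1 probe.

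ITGB2 itself has further genes of the set nearby on chromosome 21. In the order of protein-coding genes, COL18A1 follows with 3 genes between, and COL6A1 and the adjacent COL6A2 come after 2 more. COL18A1, the source of endostatin, had 0.03 and -0.49 by its brightest probe and 0.52 and 0.34 by the other. The brightest probe lies above a log2 intensity of 16, and with median centring it had 0.55 and -0.52, a mean of 0.011 in place of -0.23. COL6A1 had -0.27 and -0.04, with 0.08 and 0.35 by its other probe. COL6A2 had -0.04 and 0.20 by the probe of NM_058175, and 0.58 and 0.56 by the probe of NM_001849, which is past the technical bound. No gene of the set near ITGB2 was past 2-fold by any probe, and their probes did not share a direction. The fibrillar chains COL3A1 (0.03 and -0.23) and COL5A2 (0.21 and 0.12), which are also adjacent, were both within the bound.

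Of the 6 matrix glycoproteins and crosslinking enzymes, 3 were below the bound, 0 were above it and 3 were within it, where 12.9% of all genes were below and 10.2% above. The median was -0.27. SPARC, a collagen-binding protein of remodelling matrix, was the lowest with -0.31 and -0.83. LOXL2, an enzyme that crosslinks collagen and elastin, had -0.52 and -0.57, the closest match between hybridizations among the genes below the bound. Its probe was spotted 10 times, and the spots ranged from -0.70 to -0.35 in hybridization 1 and from -0.77 to -0.42 in hybridization 2. Its relative LOX had -0.08 and -0.28 and was within the bound.

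FN1, fibronectin, the ligand of the ITGA5 and ITGA4 receptors, had -0.30 and -0.42 by a probe of which every usable spot was below 0. Its other probes had -0.69 and -0.19 on the same accession, and -0.15 and 0.14 on NM_054034. With median centring the mean of FN1 was within the bound, at -0.28. TNC, tenascin C, was the highest of the group with 0.14 and 0.44, and THBS2, thrombospondin 2, had opposite signs, 0.16 and -0.38.

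**Figure D4:**
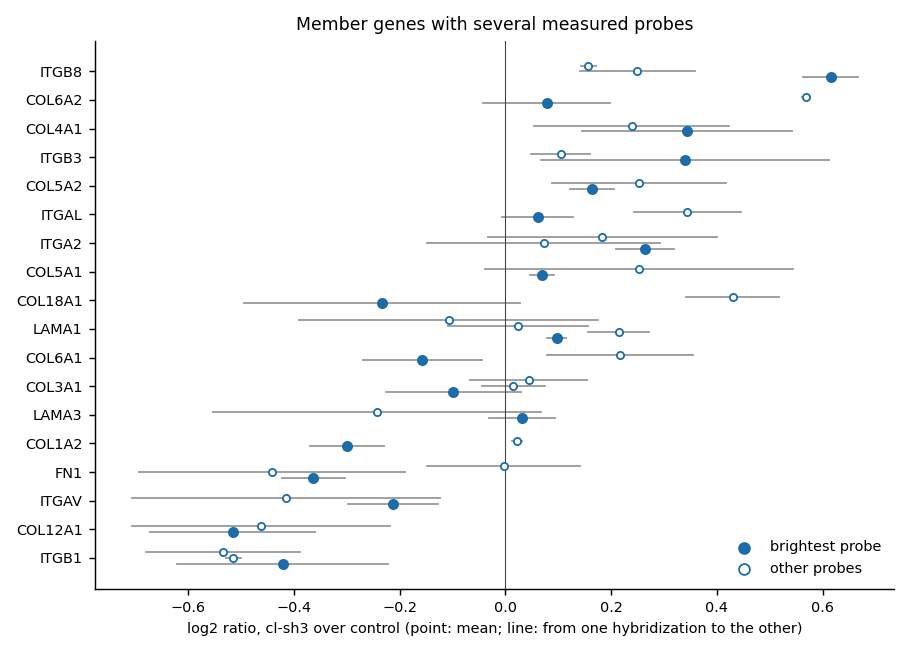
Log2 ratio of cl-sh3 over control (x axis) for the 18 genes of the set with more than 1 measured probe, with a filled point for the mean of the brightest probe, open points for the means of the others, and lines from one hybridization to the other. In 12 of the 18 genes all means lie on the same side of 0, and COL18A1 has the widest distance between probes, from -0.23 to 0.43.

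The probes of a gene did not always give the same answer. In 12 of the 18 genes with more than 1 measured probe all mean ratios had the same sign, and COL18A1, COL1A2, COL3A1, COL6A1, LAMA1 and LAMA3 had means on both sides of 0. ITGB1 had the narrowest spread among the genes with 3 probes, 0.11, followed by COL3A1 with 0.14. The deposited data do not tell whether probes of a gene that differ read different transcripts, and this was not tested.

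The cell type was read against marker lists. All 11 markers of ovarian carcinoma epithelium were well above background, including PAX8, the keratins KRT7, KRT8, KRT18 and KRT19, and ERBB2, which SKOV3 is known to express highly. Of these, 6 were above the technical bound in cl-sh3, led by KRT7 with 0.49 and 1.17, and ERBB2 was below it with -0.86 and -0.45. Among all genes, 10.2% were above the bound and 12.9% below. CDH1, counted among the 6, had 0.01 and 0.66 and passed the bound through hybridization 2 alone. All 6 endothelial markers were measured as well, with mean ratios from -0.15 to 0.18 and 0 past the bound. Signal above background thus does not by itself identify a cell type. Of 10 fibroblast markers 9 were measured, with a mean below the bound for VIM, the intermediate filament protein of mesenchymal cells (-0.31 and -1.29), and 8 within it. The summed signal of the fibroblast list, which VIM dominates, was 232455 in cl-sh3 and 288083 in the control in hybridization 1, and 147148 and 348562 in hybridization 2. The 2 VIM probes also lie above a log2 intensity of 16, and with median centring both had opposite signs in the 2 hybridizations. The part of these differences in the values of SPARC, FN1, COL12A1 and the integrins was not tested.

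**Figure D5:**
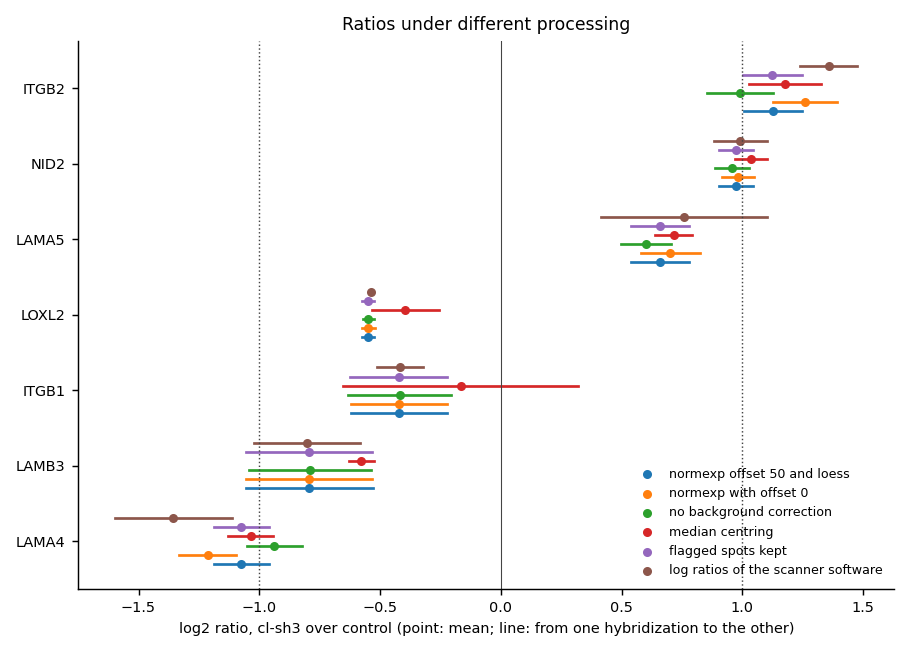
Log2 ratio of cl-sh3 over control (x axis) of 7 genes under 6 ways of processing, with a point for the mean and a line from one hybridization to the other, and dotted lines at 2-fold. Means keep their sign in all 6, and the line of the brightest ITGB1 probe crosses 0 with median centring.

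All 17 genes past the technical bound kept the sign of their mean ratio under 6 other ways of processing, and 11 stayed past the bound in each of them. These were ITGB2, ITGB5, ITGB8, LAMA5 and NID2 on the higher side and COL8A1, COL12A1, LAMA4, LAMB3, SPARC and LOXL2 on the lower side. The 6 ways count the scanner software's ratios and the deposited table separately, though both hold the same ratios. Median centring gave 11 genes above the bound and 8 below it, in place of 7 and 10, so the balance of higher and lower genes depends on how the arrays are scaled.

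The 4 further lists of related genes held 0 genes past 2-fold in both hybridizations, in either direction, where 0.136% of all genes were higher and 0.52% lower. For the counts past the technical bound in each list, the shares over all genes were 10.2% above and 12.9% below. Among the other integrin, collagen and laminin chains, 24 of 28 genes were measured, with 0 above the technical bound and 2 below it. Among other matrix glycoproteins, 25 of 26 were measured, with 4 above and 4 below. Among enzymes and chaperones of collagen folding, processing and crosslinking, all 22 were measured, with 2 above and 4 below. Of the integrin adhesion machinery, such as talins, kindlins, paxillin and tetraspanins, 37 of 39 were measured, with 7 above the bound, 2 below it (all genes 10.2% and 12.9%) and a median of 0.14. In that list 22 genes were higher in both hybridizations and 5 were lower, beside 30.9% and 28.4% of all genes. Besides RUNX2 itself, ITGB2 was thus the only gene of the set and of these lists past 2-fold in both hybridizations.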

How the data were processed

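The authors hybridized labelled cRNA of cl-sh3 and the control clone in a dye swap and deposited each spot's intensity (median pixel and local background), flags, and a log10 ratio of Cy5 over Cy3 made by Agilent's Feature Extraction (10.5.1.1 per the file headers, 8.5.1.1 per the submitters' processing notes). The deposited table of log10 ratios holds the same ratios. The deposited intensities are not normalized.

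The normexp method of limma 3.58.1 (R 4.3.3, offset 50) corrected the background, which draws ratios of dim probes towards 0. Control and outlier-flagged spots were then left out, loess was applied within each array, repeated spots were averaged, and log2 ratios of cl-sh3 over control were taken. A probe counted as measured if either RNA was well above background, on at least 50% of its spots, in both hybridizations. Tables were made with Python 3.11.15, pandas 2.3.3 and numpy 2.4.6, and plots with matplotlib 3.10.9. The steps were tested on simulated data. The number of arrays limits precision, and no test between clones was made.

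The files pair probes with accessions, not symbols. Symbols came from a RefSeq table of GRCh38.p14 by unversioned accession, and NM_004348 through the study's gene list. Promoter sequences are RefSeq's.

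Genes and lists were chosen with earlier results of these data known. Values are given for RUNX2, for genes past 2-fold or 1.5-fold in both hybridizations, for the highest and lowest of each family, and for their partners and neighbours. Other genes past the technical bound, and the second probes, were named after their values were seen. The alternatives were other background corrections, scalings, detection filters, call rules and probe choices, the software's ratios, and each hybridization alone.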

Additional observations from a re-analysis of the deposited data

How the results depend on the processing

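No paired analysis was possible because the hybridizations are a technical dye swap of 1 pair of RNAs, with no second group to pair. The number of genes at least 2-fold higher in both hybridizations was 1 (ITGB2) in the main processing and in 12 of 15 alternatives. The software's log ratios and the deposited table are counted here as separate alternatives, though both hold the same ratios. The number higher differed in the other alternatives. It was 0 without background correction and 2 (with NID2) at 1.5-fold, and from 1 to 2 with a hybridization left out. The number at least 2-fold lower was 0, but 1 (LAMA4) with normexp offset 0, the scanner software's log ratios, the deposited table, the mean of both hybridizations as the rule, or 1.5-fold, and from 0 to 2 (LAMA4 and LAMB3) with a hybridization left out. The median of the collagens was -0.10 and moved to -0.12 with offset 0, -0.047 without background correction, 0.011 with median centring, -0.0524 with the software's log ratios, -0.0523 with the deposited table and 0.030 with the mean of all probes, and lay from -0.0443 to -0.0420 in single hybridizations. That of the integrins was 0.13, with 0.18 under median centring, 0.17 for the mean of all probes and 0.0924 to 0.129 in single hybridizations. That of the laminins and nidogens was 0.0407, with 0.0698 without background correction, 0.0781 under median centring, 0.0796 for both sets of software ratios, -0.0278 for the mean of all probes and 0.0559 to 0.0711 in single hybridizations. The median of all 50 genes ran from -0.0407 to 0.0414 in single hybridizations. RUNX2 was lower under all 12 alternatives with a value, but with the mean of all its probes, -0.63, it was not past 2-fold. The mean ratio of each of ITGB2, NID2, LAMA4, LAMB3, LAMA5, ITGB8, SPARC, LOXL2, COL12A1 and ITGB1 kept its sign in these alternatives. The cause of the other shifts was not tested. Both hybridizations come from the same RNAs, so differences between cultures or clones are not covered by any of these values.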
